A study of Mus musculus with 4 samples.

Results

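The genes described here encode enzymes and membrane proteins of the lysosome, the acidic compartment in which cells break down proteins, glycans, lipids and nucleic acids. They were the 37 listed gene symbols for which at least 1 probe was found among the 27745 gene names on the arrays, namely 11 cathepsins, 18 other hydrolases and 8 proteins without a catalytic activity of their own. Where a gene had several probes, as 22 of the 37 did, the probe was selected on its mean signal over the 8 channels and the brightest stands for the gene, out of 67 probes in all. The genes were chosen by symbol from a list drawn up with earlier expression ratios of these arrays in view, so the values below describe the genes and give no independent support for any pattern.

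The arrays measured RNA of mouse embryonic fibroblasts (MEFs), primary connective tissue cells cultured from embryos, of the strain C57BL/6J. The genotype labels give Lats2-/- (KO) for 2 of the 4 arrays and wild type (WT) for the other two, and Lats2 is a Hippo pathway kinase that links cell contact to transcription. The cells came from Lats2-deficient mice and from WT littermates as controls, and how many embryos were pooled is not given in the sources used here. Each 2-colour array set a low density culture, subconfluent after 48 h, against a high density culture of the same genotype kept for 3 to 5 days, so that time in culture differed together with density. Within a genotype the second array carried the dyes Cy3 and Cy5 the other way round. All cultures were grown in the same serum-containing medium.

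A genotype at a density was therefore 1 replicate read on 2 arrays, and whether both readings used the same RNA extract is not stated. No test was possible, and no p-value is given. A gene passed the size rule when the mean of its log2 ratios reached 1 or -1, that is 2-fold, and both arrays (for a density effect) or both dyes (for a difference between genotypes) pointed the same way. The arrays labelled KO were on 2 slides and those labelled WT on 1 other slide, so slide, scan and genotype cannot be told apart. In addition, 3 of the 4 Lats2 probes were higher in the cells labelled KO, by 1.19 to 1.39 on the log2 scale at low density and 0.91 to 1.49 at high density, and the fourth was lower, with -0.63 and -1.26. Whether these probes lie within the deleted part was not examined here, and the study's western blots of LATS2 protein in these MEFs are not part of the array data. KO and WT below are thus names of labels. All 8 fibroblast markers were well above background in all 8 channels, but 5 of them passed the rule for density in WT, 5 in KO, 2 between genotypes at low density and 3 at high density. Fn1, fibronectin, had -1.60 in WT and 1.03 in KO, and Pdgfra, a growth factor receptor, was higher in KO by 4.46 at low and 3.10 at high density on the log2 scale. The part of these shifts in the results below was not tested. In bulk RNA, fewer cells of a type and less RNA per cell cannot be told apart.

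Lysosomal proteases and glycosidases are made in the endoplasmic reticulum, tagged with mannose 6-phosphate and carried to the lysosome by receptors, where low pH activates them. A proton pump, the V-ATPase, keeps the lumen acidic, and heavily glycosylated membrane proteins such as LAMP1 and LAMP2 line the inside. Many of these genes share a short promoter element bound by TFEB and its relatives TFE3 and MITF, which are known as transcription factors of lysosome formation. The core of that element is the E-box CACGTG.

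RefSeq promoter windows (build GRCm38.p6, 250 bases before to 50 after the start) were found for 33 of the 37 genes, as 36 windows. Promoters of Ctsb, Ctsh, Asah1 and Npc1 were not in the table. The stretches below lie upstream of the start in genes that differ in their density response, and are shown because each holds the E-box core, printed in capitals. They run 5′ to 3′ on the gene's own strand.
Lamp1, chr8:13159081-13159160, plus strand: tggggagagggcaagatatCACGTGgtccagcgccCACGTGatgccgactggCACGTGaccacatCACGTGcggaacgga
Mcoln1, chr8:3500439-3500518, plus strand: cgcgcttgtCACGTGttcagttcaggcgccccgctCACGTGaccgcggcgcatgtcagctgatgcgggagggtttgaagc
Ctsd, chr7:142387888-142387947, minus strand: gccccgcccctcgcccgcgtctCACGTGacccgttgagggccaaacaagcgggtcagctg
Ctsf, chr19:4855065-4855124, plus strand: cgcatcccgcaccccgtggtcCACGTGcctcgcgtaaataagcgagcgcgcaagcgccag
Gla, chrX:134601186-134601245, minus strand: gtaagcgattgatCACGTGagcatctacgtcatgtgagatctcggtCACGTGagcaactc
The Lamp1 window held 4 copies, and those of Mcoln1, Gla and Ctsd held 2 each, although only 1 of the Ctsd copies lies in the stretch shown. Since CACGTG reads the same on both strands, 1 search covered both.

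The core CACGTG was present in 13 of the 36 windows (36.1%), against 2349 of 32851 promoters of all genes (7.15%) and 973 of 9834 promoters of genes measured for the WT density effect (9.89%). The longer palindrome TCACGTGA, which contains the core, was present in 4 windows (11.1%), against 0.974% of all promoters and 1.93% of those of measured genes. The median log2 ratio of high over low density in WT was 0.70 for the 13 genes with the core and 0.88 for the 19 measured genes without it. In KO these medians were 0.04 for the 13 genes with the core and 0.23 for the 17 measured without it. Of the genes that passed the size rule upward in WT, Ctsf, Arsa and Gaa held the core, whereas Ctso, Lamp2, Neu1, Ids, Ppt1, Npc2 and Hexa had no copy in their windows. Whether the core goes with the density response was not tested. A match of letters is a description of the window and not a binding site.

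In WT cells most lysosomal genes were higher at high density. Of the 36 genes measured, 33 had a log2 ratio of high over low density above 0 and the median was 0.68, whereas the median over all 14880 genes measured was 0.06, with 54.8% above 0. The size rule was passed upward by 11 genes and downward by 0. Over all genes measured, 9.42% passed upward and 6.09% downward. The genes that passed came from each class, namely 3 of 10 measured cathepsins, 6 of 18 other hydrolases and 2 of 8 non-enzymes.

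Ctso, a cysteine cathepsin, had the highest ratio in WT. Its log2 signal (probe at chr3:82041303-82041362, mm8) was 7.51 and 7.22 at low density and 10.27 and 9.92 at high density, with the first array before its dye swap here and below, a 6.65-fold difference. In KO the same probe read 9.21 and 9.43 at low density and 10.48 and 10.65 at high density, 2.36-fold. The densities did not overlap in either genotype, and the low density signals of KO lay above those of WT.

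Ctsf, another cysteine cathepsin, which trims the invariant chain in macrophages, followed with 5.98-fold in WT. Its probe (chr19:4860454-4860513, mm8) gave log2 signals of 7.63 and 7.58 at low density and 10.17 and 10.19 at high density. In KO the signals were 8.52 and 8.29, then 10.04 and 10.25, a 3.34-fold difference. The high density signals of both genotypes lay within the same range, and the genotypes were apart at low density. The log2 ratio of Ctsf in WT was 2.58, and 2.94 with an offset of 10 and 3.07 with the processed signals.

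Ctsb, an abundant cysteine protease with both endopeptidase and carboxypeptidase activity, passed the size rule in WT with a log2 ratio of 1.29 and had 0.61 in KO. Its second probe gave 0.58 and -0.14, so the size of the Ctsb effect depended on the probe, as did its direction in KO. Ctsa, the serine carboxypeptidase that protects NEU1 and β-galactosidase in a complex, Ctsl, a cysteine endopeptidase, and Ctsd, the main aspartic protease, had nearly the same ratio in WT, 0.78, 0.78 and 0.77. Ctsz, a carboxypeptidase, was close by with 0.88. In KO these genes had 0.04, 0.09, -0.14 and 0.14 in the same order, and with median centring in place of loess Ctsa, Ctsl and Ctsz lay below 0.

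The remaining cathepsins had smaller ratios or were dim. Ctsh, an aminopeptidase, had 0.41 in WT and 0.39 in KO. Ctsc, the dipeptidyl peptidase that activates granule proteases of immune cells, had -0.15 in WT and was not well above background in KO. Ctsk, the collagen-degrading cathepsin of osteoclasts, was well above background in 3 of 8 channels and at least 1.38-fold higher at high density in WT. Its log2 ratio in WT was 0.52, but it passed the rule with an offset of 10 (1.15) and with the processed signals (2.85). Ctss, a cathepsin of antigen-presenting cells, was not well above background in any channel.

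Among the other hydrolases, Arsa and Neu1 had the highest ratios in WT. Arsa encodes arylsulfatase A, which removes sulfate from sulfatides. Its log2 signal was 11.83 and 11.79 at low density and 13.50 and 13.54 at high density in WT, and 12.03 and 12.06, then 13.15 and 13.25, in KO. This gave 3.27-fold in WT and 2.22-fold in KO, with no overlap between densities in either genotype, though with median centring Arsa fell short of 2-fold in KO.

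Neu1, the lysosomal sialidase, passed the rule in WT and had nearly the same signal at both densities in KO. Its signals (probe at chr17:34543216-34543275, mm8) were 10.37 and 10.44 at low density and 12.02 and 12.07 at high density in WT, 3.11-fold. In KO they were 11.91 and 12.11 at low density and 11.92 and 12.13 at high density, 1.01-fold. The KO signals at both densities and the WT signals at high density thus fell in the same range, while WT at low density was lower. The second Neu1 probe gave log2 ratios of 1.16 in WT and -0.20 in KO.

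The other hydrolases that passed in WT were Gaa, the acid α-glucosidase that degrades glycogen (log2 ratio 1.39), Ids, a sulfatase of heparan and dermatan sulfate (1.25), Ppt1, which removes palmitate from proteins (1.22), and Hexa, the α subunit of β-hexosaminidase (1.13). The 3 other probes of Ppt1 did not pass, as 1 was not well above background in any channel, 1 had the opposite sign (-0.47) and the last had 0.85. The 3 other probes of Ids were dim or had smaller ratios. Tpp1, a tripeptidyl peptidase, stood at 0.88 on its brightest probe and passed on its second, with 1.44.

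Among the membrane and accessory proteins, Lamp2 had the highest ratio in WT. LAMP2 is a major glycoprotein of the lysosomal membrane and a receptor of chaperone-mediated autophagy. Its log2 signal (probe at chrX:34664224-34664283, mm8) was 12.65 and 12.99 at low density and 14.88 and 15.00 at high density in WT, 4.35-fold, and 13.66 and 13.97, then 14.18 and 14.27, in KO, 1.33-fold. A second Lamp2 probe gave similar log2 ratios of 1.61 and 0.25, and the last, well above background in 6 channels, gave 0.25 and 0.06. Lamp1, its close relative, had 0.70 in WT and -0.25 in KO. Npc2, the soluble cholesterol carrier of the lysosome, had 1.14 and 0.36.

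**Figure D1:**
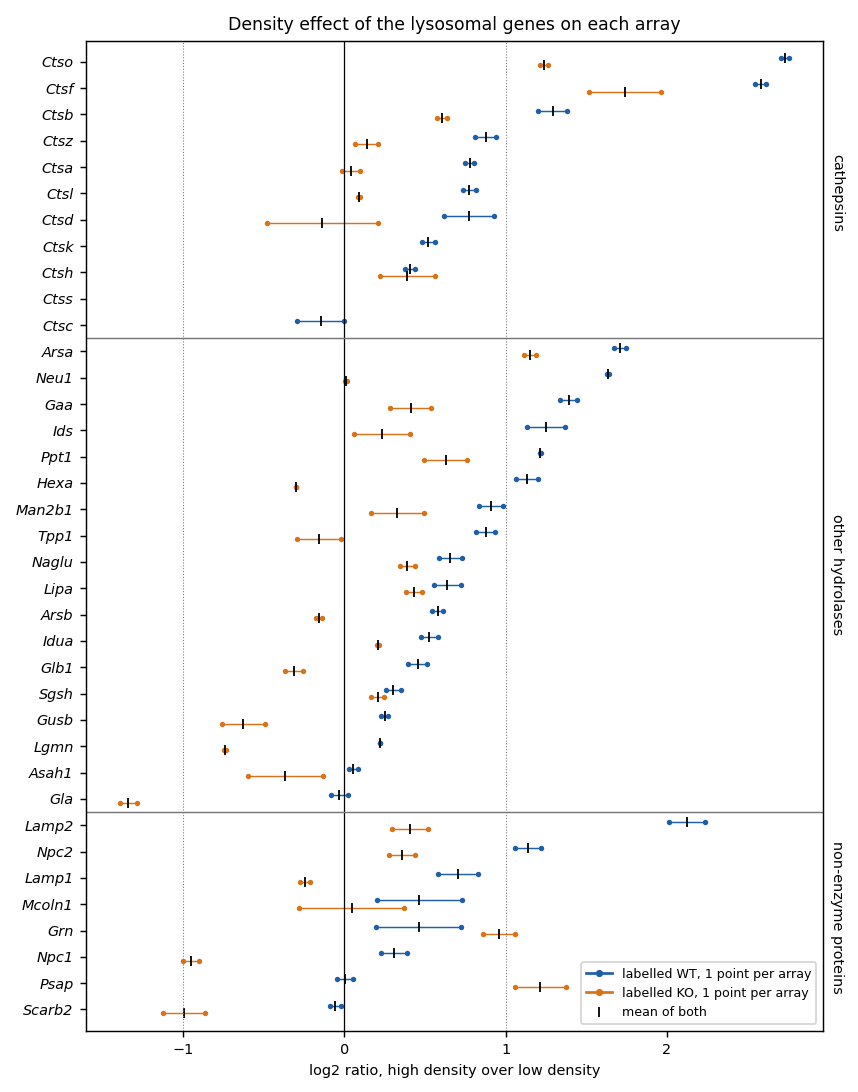
Log2 ratio of high over low density (horizontal axis) for each lysosomal gene measured (vertical axis, ordered by the WT ratio within each class), with 1 point per array, a line between both arrays and a tick at their mean, blue for cells labelled WT and orange for KO; dotted lines mark log2 ratios of 1 and -1. In WT the means of 11 genes lie at or beyond 1, and in KO those of 4 genes, with Gla beyond -1; genes without points were not measured in that genotype.

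In KO the median of the same genes was nearer to that of all genes than in WT. The median log2 ratio of the 34 genes measured was 0.17, against 0.06 for all 15443 genes measured. Of the 34, 22 lay above 0, against 54.6% of all genes. Ctsf, Ctso, Psap and Arsa passed the size rule upward and Gla downward. Over all genes measured, 7.16% passed upward and 3.87% downward. The sign of this median rested on the normalization. With each array centred on its median in place of loess the KO median of the lysosomal genes was -0.22, 12 of the 34 genes had the opposite sign, and 2 passed upward and 4 downward, while the WT median remained above 0, at 0.50, with 6 genes passing upward and 0 downward, as Ctsb, Ppt1, Hexa, Ids and Npc2 fell short of 2-fold. Over all genes measured, centring gave 5.19% upward and 6.93% downward in KO, and 7.59% and 8.53% in WT. That centring also moved the median of all genes, from 0.06 to -0.05 in WT and from 0.06 to -0.08 in KO, and the share of upward calls among all calls from 60.7% to 47.1% in WT and from 64.9% to 42.8% in KO. Relative to the median of all genes, the lysosomal median in WT was 0.62 with loess and 0.55 with centring, and in KO it was 0.12 and -0.14.

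Psap was higher at high density in KO and at nearly the same level at both densities in WT. It encodes prosaposin, the precursor of the saposins that help hydrolases reach sphingolipids. Its log2 signal (probe at chr10:59697434-59697493, mm8) was 13.21 and 13.11 at low density and 13.16 and 13.16 at high density in WT, and 12.95 and 12.87, then 14.01 and 14.24, in KO, a 2.32-fold difference. The KO cells at high density stood above all other channels. The second Psap probe gave -0.19 in WT and also passed the rule in KO, and with median centring Psap did not reach 2-fold in KO.

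Gla, α-galactosidase A, which removes galactose from globotriaosylceramide, was the gene that passed downward in KO. Its signals were 9.07 and 9.04, then 8.99 and 9.06, in WT, and 9.30 and 9.33 at low against 7.91 and 8.04 at high density in KO. The KO signals at high density were the lowest of the 8, 2.53-fold below those at low density. Its second probe was near background.

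Next to these, several genes that did not pass in KO had ratios below 0 on both KO arrays. Scarb2, the receptor that carries β-glucocerebrosidase to the lysosome, had -0.99, Npc1, the membrane transporter that exports cholesterol, -0.95, Lgmn, an asparaginyl endopeptidase, -0.74, and Gusb, β-glucuronidase, -0.63. In WT the ratios of these genes were -0.06, 0.31, 0.22 and 0.25. Scarb2 and Npc1 lay near the threshold, as both passed downward in KO with median centring, with a smaller offset and with the scanner software's processed signals, and the second Scarb2 probe passed with -1.02.

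The density effect was lower in KO than in WT for nearly every lysosomal gene. The difference of the log2 ratios, KO minus WT, was below 0 for 32 of the 34 genes measured in both genotypes, and for 31 of them in both dye orientations, with a median of -0.75. Over all 14168 genes measured the median was 0.02 and 48.4% were below 0. The size rule was passed downward by 8 genes and upward by 1, whereas over all genes 4.98% passed downward and 4.55% upward. The downward values were -1.72 for Lamp2, -1.62 for Neu1, -1.49 for Ctso, -1.43 for Hexa, -1.31 for Gla, -1.26 for Npc1, -1.03 for Tpp1 and -1.01 for Ids. Tpp1 and Ids lay near the threshold, and each fell short of it in 1 of the dye orientations. The second Tpp1 probe passed with -1.87, whereas the other measured Ids probe gave -0.45. With median centring the rule was passed downward by 15 genes and upward by 0, while over all genes the shares were 6.06% downward and 4.15% upward.

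These 8 genes reached the same difference in unlike ways. Hexa gave log2 signals of 12.99 and 13.13 at low and 14.20 and 14.19 at high density in WT, and 14.48 and 14.29, then 14.18 and 13.99, in KO, so its density effect was upward in WT and downward in KO. For Gla the WT signals of both densities overlapped and the difference lay in the KO cells. For Lamp2, Neu1, Ctso and Ids the ratio was upward in WT and closer to 0 in KO. Psap was the single gene that passed upward, with 1.21, and Grn, progranulin, a secreted and lysosomal glycoprotein, had 0.50 on its brightest probe but -0.96 on the other.

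**Figure D2:**
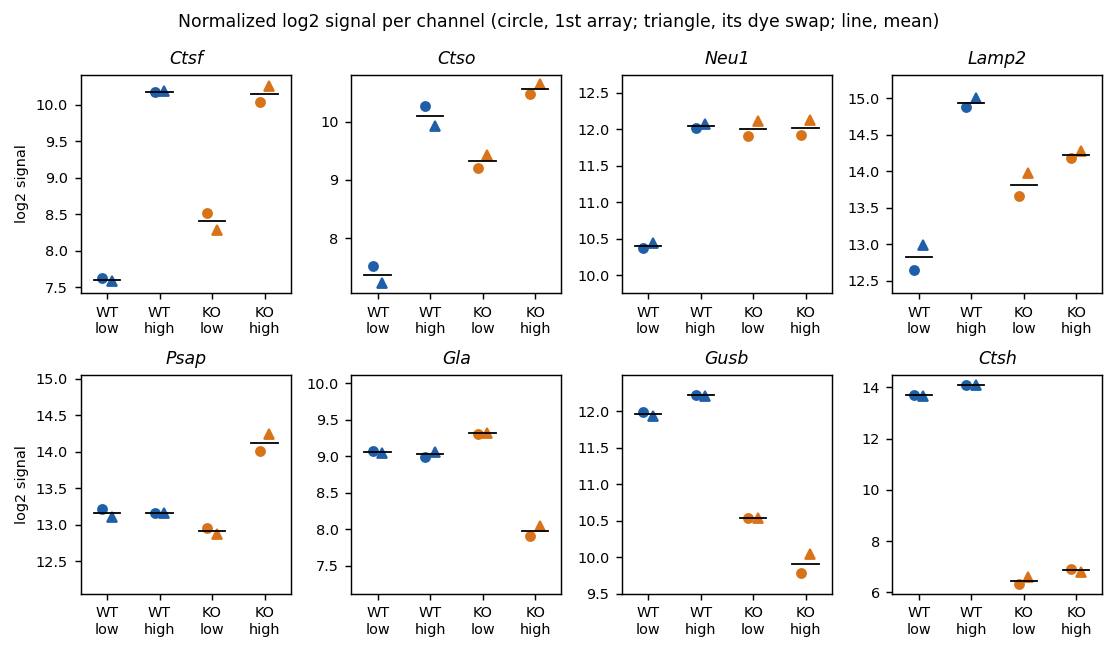
Normalized log2 signal (vertical axis, each panel with its own range) of 8 lysosomal genes in the 8 channels, blue for cells labelled WT and orange for KO, with circles for the first array, triangles for its dye swap (both readings of 1 replicate) and a line at their mean. Ctsf, Ctso, Neu1 and Lamp2 are lowest in WT at low density, Psap is highest and Gla lowest in KO at high density, and Gusb and Ctsh are lower in KO at both densities.

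The medians of cathepsins and other hydrolases were set side by side. In WT the median log2 ratio of high over low density was 0.78 for the 10 measured cathepsins and 0.65 for the 18 other hydrolases, and in KO it was 0.27 for 8 cathepsins and 0.11 for the other hydrolases. For the difference between genotypes the medians were -0.74 and -0.75. The gap between both classes was 0.13 in WT, 0.16 in KO and 0.01 for the difference, and whether the classes differ was not tested. Single ratios in WT ran from -0.15 to 2.73 for cathepsins and from -0.03 to 1.71 for other hydrolases. The 8 non-enzymes had medians of 0.46 in WT, 0.20 in KO and -0.86 for the difference.

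Between genotypes at low density, most lysosomal genes were higher in KO. Of the 35 genes measured, 28 lay above 0, against 52.0% of all genes. The median log2 difference was 0.58, against 0.03 over all 15252 genes measured. The rule was passed upward by 7 genes and downward by 3, and over all genes by 7.32% upward and 8.36% downward. The upward genes were Ctso (1.96), Neu1 (1.60), Lipa (1.44), Hexa (1.32), Lamp1 (1.29), Gaa (1.22) and Npc2 (1.13). Lamp2 stood at 0.998 just below the threshold, and its second probe gave 1.35.

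At high density more of the lysosomal genes passed downward than upward between genotypes. The median of the 36 genes measured was -0.10, against 0.03 over all 15618 genes measured, and 15 lay above 0, against 52.1% of all genes. The rule was passed upward by Lipa and downward by 6 genes, against 6.74% upward and 7.79% downward over all genes. Among the downward genes at both densities was Ctsc, measured only because it was well above background in WT. With probes well above background in every channel, 6 genes passed here and 9 at low density. Since KO and WT at the same density share their arrays with the density ratios, these differences are the same measurements seen across genotypes, and Neu1, Hexa and Gaa had -0.02, -0.11 and 0.24 at high density.

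**Figure D3:**
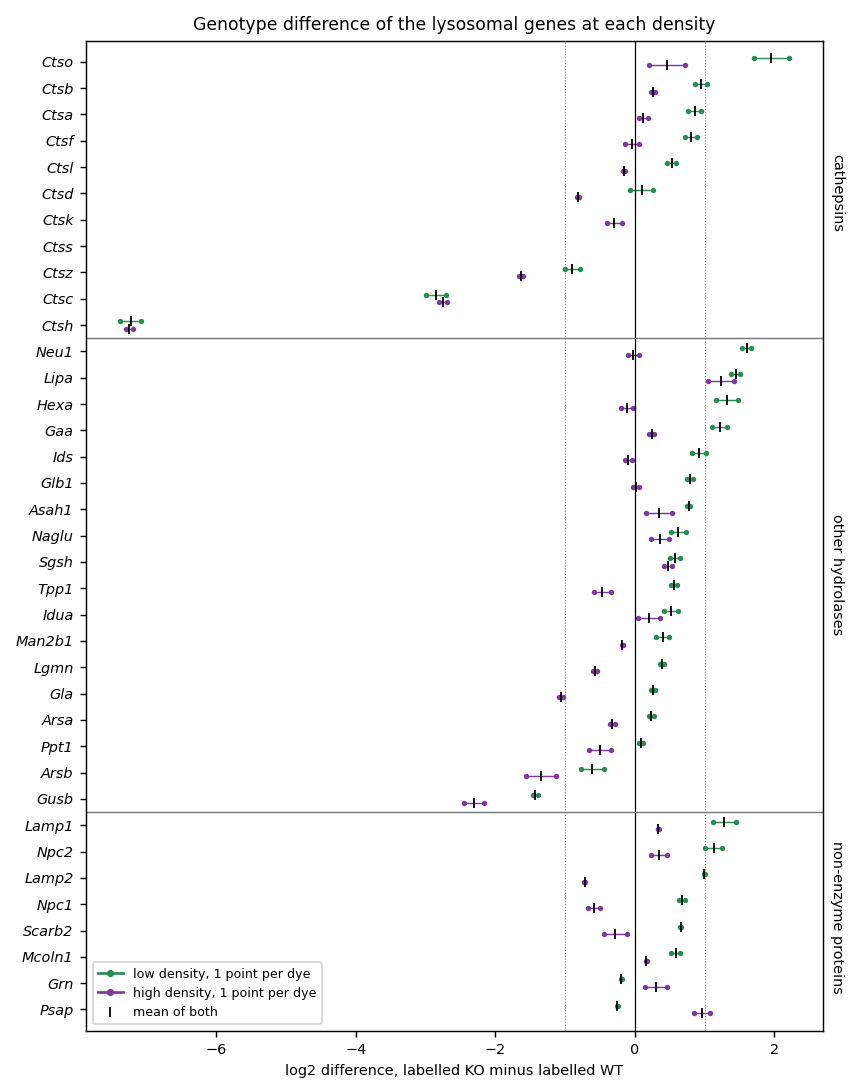
Log2 difference between cells labelled KO and WT (horizontal axis) for each lysosomal gene measured (vertical axis, ordered by the low density value within each class), with 1 point per dye, a line between both dyes and a tick at their mean, green for low and violet for high density; dotted lines mark 1 and -1. At low density 28 of 35 genes lie above 0, at high density 15 of 36, and Ctsh lies near -7 at both.

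Ctsh showed the widest genotype difference of the set. Its log2 signal (probe at chr9:89873883-89873942, mm8) was 13.72 and 13.66 at low and 14.09 and 14.10 at high density in WT, and 6.33 and 6.58, then 6.90 and 6.80, in KO. This gave 150-fold lower signal in KO at low density and 152-fold at high density, on a probe that was well above background in all 8 channels. The net intensity of the KO channels was 16.9 to 116, of the order of the offset of 50 added in the background correction, and with an offset of 10 in place of 50 the log2 differences were -8.19 and -7.92 in place of -7.23 and -7.25. Signals processed by the scanner software gave -9.21 and -8.67.

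Ctsc was likewise well above background in the 4 WT channels and in none of the KO channels. Its log2 signals were 8.84 and 9.06 at low and 8.84 and 8.77 at high density in WT, and 6.14 and 6.06, then 6.14 and 5.96, in KO. The KO signal was at least 7.17-fold lower at low density and at least 6.24-fold lower at high density, bounds set by the dimmest probes well above background in those channels.

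Gusb was lower in KO at both densities. Its signals were 11.99 and 11.94, then 12.22 and 12.21, in WT, and 10.54 and 10.54, then 9.77 and 10.05, in KO, a 2.69-fold difference at low and 4.94-fold at high density. The second Gusb probe gave log2 differences of -1.34 and -1.92. Ctsz was lower too, with log2 differences of -0.89 at low and -1.63 at high density, and its second probe passed the rule at both. Arsb, which removes sulfate from dermatan sulfate, was at -1.35 at high density, but another probe of the gene gave -0.18.

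Lipa, the acid lipase that frees cholesterol and fatty acids from lipoprotein lipids, was the gene that passed the rule upward at both densities. Its signals were 9.14 and 9.01, then 9.69 and 9.73, in WT, and 10.64 and 10.40, then 11.12 and 10.78, in KO. The genotypes did not overlap at either density, with log2 differences of 1.44 and 1.24. A second probe, well above background in 3 channels, gave 0.26 at high density.

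Some cathepsins are abundant in macrophages, and Ctsk in osteoclasts, so the markers of these cell types were read beside them. Of 15 macrophage markers 3 were well above background in all 8 channels and 8 in none, among them Ptprc, Itgam, Emr1 and Tyrobp. The summed signal of the list ran from 1560 to 1692 in WT, from 2346 to 2566 in KO at low density and from 5206 to 6247 in KO at high density. Of the markers measured between genotypes, Lyzs, a lysozyme gene, was at least 14.9-fold higher in KO at low density, where it was not well above background in WT, and higher by 4.75 on the log2 scale at high density. Cd14 was lower, with -1.79 and -1.59. Of the 5 osteoclast markers 3 were well above background in no channel, among them Acp5. Mmp9, a gelatinase, was at least 2.97-fold higher at high density in WT and at least 3.13-fold lower in KO than in WT at high density. Without Lyzs, a sum of the macrophage markers chosen after seeing the data, the other 14 ran from 1381 to 1620 in WT and from 1172 to 1245 in KO. The part of such cells in the results was not tested.

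Genes outside the set that belong to the same pathway were also read. Their lists were likewise written with earlier results of these data known and were read on the same arrays. They give no independent support for any pattern. Of 36 measured other lysosomal genes, 14 passed upward and 0 downward in WT, and 2 and 0 in KO, with median log2 ratios of 0.71 and 0.06. Over all genes measured, 9.42% passed upward and 6.09% downward in WT, and 7.16% and 3.87% in KO. For the difference 11 passed downward and 0 upward, with a median of -0.77, against 4.98% downward and 4.55% upward over all genes. The highest WT ratios were those of Abcb9, a lysosomal peptide transporter (2.48), and Laptm4a, a membrane protein (1.98). The widest differences were those of Fuca2, a fucosidase (-1.77), Ctns, the cystine exporter (-1.48), and Abcb9 (-1.41). At low density 11 of the genes were higher in KO by the rule, led by Fuca2 (2.64), Dpp7, a dipeptidyl peptidase (2.08), and Scpep1, a carboxypeptidase (1.81), and 0 were lower. Over all genes 7.32% were higher and 8.36% lower at low density, and 6.74% and 7.79% at high density. At high density Slc17a5, the sialic acid exporter, was higher (1.01), and Gm2a, the GM2 activator protein (-1.80), Laptm4b (-1.54) and Hyal1, a hyaluronidase (-1.24), were lower.

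The subunits of the V-ATPase had lower ratios. Of 17 measured, 1 passed upward in WT (Atp6v1f, 1.06), against 9.42% of all genes, and the median was 0.25. In KO 15 of 18 lay below 0, with a median of -0.34. The difference between the genotypes had a median of -0.72, and the subunits that passed downward were Atp6ap2 (-1.63), Atp6v1a (-1.46), Atp6v0d1 (-1.04) and Atp6v0b (-1.03). Over all genes 4.98% passed downward. At low density 5 subunits were higher in KO by the rule, against 7.32% of all genes, among them Atp6ap2 at 1.80 and Atp6v1d at 1.45. Atp6v0e2 was at least 9.19-fold higher in KO at low density, where it was not well above background in WT. At high density 1 of the 2 WT arrays measured it well above background. Its density ratio in KO was 2.26.

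Genes of mannose 6-phosphate sorting, which tag and carry the hydrolases, did not pass the rule in any of the 5 comparisons, 0 of 12. Over all genes measured, 3.87% to 9.42% passed per comparison and direction, so 0 of 12 was near those shares. The same shares apply to the lists that follow. The medians of the sorting genes were 0.00 in WT, -0.09 in KO and -0.16 for the difference. Of the 4 genes of the MiT/TFE factors, 2 were measured in WT and 3 in KO, and 0 passed. Cystatins, the inhibitors of cysteine cathepsins, were measured for 3 genes. Cst3 was higher at high density in WT (1.34), Cst6 was lower at high density in KO (-1.45) and higher in KO than in WT at low (3.49) and high density (1.55), and the differences of Cst6 and Cstb were -1.94 and -1.56. Of 19 autophagy genes measured, Gabarapl1, Map1lc3b and Sqstm1 passed upward in WT (1.31, 1.30 and 1.20) and Gabarapl1 in KO (1.46), while the medians were 0.04 and 0.15. Sqstm1, the autophagy receptor p62, and Atg12 had differences of -1.10 and -1.03, while the median difference of the 19 was 0.11, with 11 above 0 and 8 below. Map1lc3a, an LC3 gene, was higher in KO at both densities (1.04 and 1.06).

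**Figure D4:**
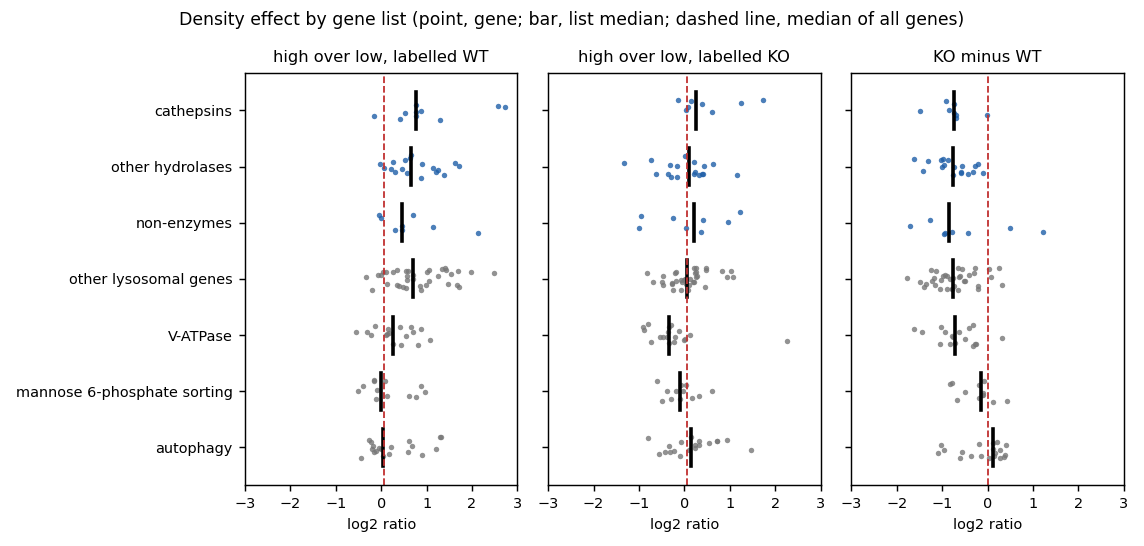
Log2 ratio of high over low density in WT, in KO, and their difference (horizontal axes) for the classes of the set (blue) and other lysosomal lists (grey), with 1 point per gene measured, a bar at each list's median and a dashed line at the median of all genes. The cathepsins, the other hydrolases and the other lysosomal genes have medians from 0.65 to 0.78 in WT and from -0.77 to -0.74 for the difference, and mannose 6-phosphate sorting genes have medians near 0 in WT.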

How the data were processed

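Genotype, density and dye of each channel came from the labels. Their genotype field names Lats2, whereas their source names have LAT2. The members and the gene lists were chosen with earlier results of these data known. Per the file headers, the authors extracted the scans with Agilent Feature Extraction 10.5.1.1, and the deposited files hold raw spot and background intensity per dye, processed intensity and quality flags. They also hold a log10 ratio of the processed signals, deposited again in the series matrix as high over low density. For this its sign was turned on the dye-swap array of each genotype and kept on the other.

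Raw intensity was corrected by normexp (offset 50) and normalized by loess within arrays and by Aquantile between arrays, with R 4.3.3 and limma 3.58.1. Dim probes have compressed ratios because of the offset. Features of a probe were averaged, and control and outlier spots were left out. A gene was represented by the probe with the highest mean signal. For a density effect the probe had to be flagged as well above background in both channels of 1 density or the other, and for a genotype difference in both dyes of 1 genotype or the other. Features well above background made up 52.8% to 56.2% in 6 channels, and 62.6% and 67.7% in those of the first KO array, and precision is limited by how few arrays there were. For Lats2 KO MEFs the methods name a 2-fold threshold with a t-test, which 1 replicate does not allow, and a threshold of 1.4-fold, named for other arrays, was an alternative here. Sequence windows were searched with Python 3.11.15 and pandas 2.3.3. Positions of probes were taken from the array design (mm8) without a match to exons.

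The text names all cathepsins, up to 5 genes per comparison and direction that passed the size rule, up to 3 per other list, and Lats2. Others were named after their values were seen.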

Additional observations from a re-analysis of the deposited data

Results flagged for a closer look

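For 9 genes both WT arrays gave a higher signal at high density and both KO arrays a lower one, and the difference was not tested. They are 9 of the 34 genes measured in both, against 7.91% of all genes measured. The KO minus WT differences of the log2 ratios were -0.96 for Lgmn, -1.03 for Tpp1, -1.43 for Hexa, -0.77 for Glb1, -0.88 for Gusb, -0.42 for Asah1, -0.74 for Arsb, -0.95 for Lamp1 and -1.26 for Npc1. In WT 1 other probe of Glb1 had the opposite sign (-0.08). In KO the other probes of Arsb gave the opposite sign or were not measured, and with median centring the WT ratios of Lgmn and Asah1 changed sign.

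For 14 genes the genotype difference had opposite signs at low and high density in both dyes, which was not tested either. In 12 of the 35 genes measured in both, KO was higher at low and lower at high density, against 7.86% of all genes, and in 2 it was the reverse, against 8.22%. The high minus low density differences were -0.69 for Ctsl, -0.96 for Lgmn, -1.03 for Tpp1, -0.59 for Ppt1, -1.43 for Hexa, -1.31 for Gla, -0.58 for Man2b1, -1.01 for Ids, -0.56 for Arsa, -1.72 for Lamp2, -0.94 for Scarb2 and -1.26 for Npc1. Psap (1.21) and Grn (0.50) ran the other way, and the second probe of Grn did not share its sign. Other probes had the opposite sign for Ppt1 at low density (-0.08) and for Lamp2 (0.12) and Ids (0.0025 and 0.13) at high density. Of these genes, 4 appear in both groups.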

How the results depend on the processing

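With each array centred on its median, the median of the lysosomal genes was 0.50 in WT, -0.22 in KO and -0.90 for the difference of the density effects, and 6 genes passed in WT and 15 for the difference, against 16.1% and 10.2% of all genes measured. At a 1.4-fold threshold 23, 12, 27, 27 and 13 genes passed in WT, in KO, for the difference, and between genotypes at low and high density, against 41.1%, 36.7%, 31.5%, 42.6% and 39.4% of all genes measured. The gap between the medians of cathepsins and other hydrolases was above 0 in WT and KO under every alternative run and changed sign under some alternatives in the other contrasts. It was -0.19 for the difference with centring and -0.12 with the mean over all probes. At low density it was -0.19 with the scanner software's processed signals, 0.0946 with centring, 0.0843 with the mean over all probes and 0.0983 with probes well above background in every channel, and at high density -0.33 with the processed signals. The cause was not tested.

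Leaving out an array left 1 array per density effect or 1 dye per genotype contrast. The medians then ran from 0.67 to 0.73 in WT, 0.12 to 0.21 in KO, -0.80 to -0.70 for the difference, 0.62 to 0.65 at low and -0.14 to -0.08 at high density. In the same order the class gaps ran from 0.08 to 0.18, 0.17 to 0.24, -0.06 to 0.08, -0.15 to 0.0831 and -0.15 to -0.07. Counts of genes that passed are left out for these runs, because with 1 value the rule cannot ask for agreement of sign. No gene that passed the rule changed sign under any alternative run, which genes chosen for their size on the same arrays could hardly do. With the mean over all probes, 8 of the 11 genes that passed in WT still passed, without Ctsb, Ppt1 and Ids, and 1 was gained. At high density between genotypes 5 of 7 still passed, without Lipa and Arsb, and 0 were gained. The density effects were taken within arrays and are thus paired by array, and the genotype differences were taken within a dye. The labels carry no replicate numbers, and those used here were given in accession order. With 1 replicate per genotype and density, the spread between cultures is unknown, and the 37 genes were well above background in all channels except Ctsc, Ctsk and Ctss.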
